A study of Homo sapiens with 6 samples.

Results

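The far intergenic copies of SVA_D, a subfamily of the SVA retrotransposons, were followed in HEK293T cells with and without a guide RNA aimed at SVA_D. A copy was taken as far intergenic when it lay on chromosomes 1 to 22 or X, overlapped no protein-coding gene body, and sat more than 50000 bases from the nearest 5' end of a protein-coding gene. This rule used position only, and 322 of the 1546 SVA_D copies in the deposited tables met it. Of the others, 446 were intergenic and within 50000 bases of a gene start, 680 overlapped a gene body, and 98 lay on chromosome Y or on scaffolds. HEK293T is a transformed human embryonic kidney cell line. The guide group of 3 libraries came from HEK293T cells transfected with dCas9-VP64, rtTA and the SVAD sgRNA, with the genotype given as CRISPRa. The no-guide group of 3 libraries came from HEK293T cells with dCas9-VP64 and rtTA, with the genotype given as WT, and the titles of all 6 libraries name SunTag. By these labels both groups were given the activator, and the controls lacked the guide. The alignment names of control replicates 1 and 2 also read WT, and whether the guide was the only difference between the groups is not stated. Whether the 3 libraries of a group are separate cultures is not stated, so a p-value refers to the spread over these libraries alone, and that spread may be technical. No time after transfection, transfected share of cells or guide sequence was used here.

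SVA elements are composite retrotransposons found in hominids, built from a hexamer repeat at the 5' end, an Alu-like region, a GC-rich stretch of variable tandem repeats (the VNTR), an SINE-R region derived from an endogenous retrovirus, and a poly(A) tail. They code for no protein and depend on the machinery of L1 elements to copy themselves. KRAB zinc finger proteins, with ZNF91 the best known for SVA, bring the corepressor TRIM28 and histone H3 lysine 9 methylation to them, and DNA methylation adds to their silencing. A Cas9 that cannot cut, joined to an activator such as VP64, raises transcription from the places its guide matches.

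The far copies were spread over all 23 chromosomes considered, with the most, 28, on chromosome 1. They made up 22.2% of the 1448 copies on these chromosomes. On gene-dense chromosome 19 only 5 of 68 copies (7.35%) were far, while the share was 32.3% on chromosome 4 (21 of 65) and 31.6% on chromosome 13 (12 of 38). Annotated length ran from 11 to 2326 bases with a median of 1454, close to the median of 1470 over the other position classes, and 218 of the 322 were 1000 bases or longer. The plus strand held 173 and the minus strand 149. The distance to the nearest gene start had a median of 137231.5 bases and reached 1656595 bases, with 130 copies at 50000 to 100000 bases, 150 at 100000 to 500000 and 42 beyond that. At the edge of the rule, SVA_D_dup192 lay inside it at 50105 bases (5 counts with the guide, 0 without), and SVA_D_dup579 outside it at 49861 bases (7 counts with the guide, 3 without). GENCODE 29, which also lists non-coding genes, placed 91 far copies inside a gene, 53 of them in a lincRNA and 0 in a protein-coding gene. Only 8 overlapped an annotated exon, and 231 lay in no annotated gene. Another SVA_D copy lay within 1000 bases of 64 of them, and 14 overlapped their neighbour, so those share sequence and can share reads.

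The 6 libraries held 16557854 to 22651168 counts over protein-coding genes and 2608 to 4553 counts over SVA_D copies, and levels are given as counts per 1000000 gene counts (CPM). At these depths 3 counts, the limit that a count of 0 allows, equal 0.132 to 0.181 CPM. In the SVA_D tables a pair with several alignments adds a count at each, so part of a copy's counts can belong to similar copies. Replicate 3 of both groups stood apart: its alignment names follow another scheme, principal component 1 of the gene table (74.6% of the variance) separated these 2 libraries from the other 4, and of 13367 genes tested with the group in the model, 3584 were higher and 3711 lower in them (edgeR, adjusted p under 0.05). Each group has 1 such library, and for the main sums the log2 ratio is also given for replicates 1 and 2 and for replicate 3. HEK293T markers were present in all libraries, with VIM at 746 to 1889 CPM, NEFM at 182 to 399 and PAX2 at 4.65 to 9.71, while PTPRC, CD3E and CDH5 had at most 3 counts in any library.

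Far copies as a group had little RNA in either condition, and more with the guide. All 322 together reached 32.1, 34.9 and 43.2 CPM in guide libraries 1 to 3, against 27.5, 27.9 and 31.1 CPM without it. Every guide library was above every library without the guide, with means of 36.7 ± 5.76 and 28.8 ± 1.99 CPM (SD, n = 3 each). The ratio of means was 1.27, a log2 ratio of 0.35 (two-sided exact permutation p = 0.1, the smallest that 3 against 3 libraries can give). The log2 ratio was 0.28 in replicates 1 and 2 and 0.47 in replicate 3. In bulk RNA, more cells with a transcript and more of it per cell cannot be told apart. The counts behind these sums were 668, 578 and 894 with the guide, and 623, 483 and 665 without it.

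Copies in the other positions were measured the same way. Intergenic copies near a gene start stood at 50.8 ± 15.0 CPM with the guide and 34.4 ± 5.53 without it, a ratio of 1.47 with overlapping groups (exact permutation p = 0.2). The overlap was between guide replicate 1 (39.7 CPM) and control replicate 3 (40.8 CPM), and the log2 ratio was 0.43 in replicates 1 and 2 and 0.73 in replicate 3. Copies overlapping a gene body stood at 100.9 ± 7.59 against 91.5 ± 5.23 CPM, a ratio of 1.10, also with overlap (exact permutation p = 0.2). In all 3 position classes the guide library was higher in each of the 3 same-numbered pairs. Per kilobase of annotated copy, the far copies were at 0.0928 CPM with the guide and 0.0728 without it, the near copies at 0.0899 and 0.0610, and those in gene bodies at 0.120 and 0.109. The far level rests largely on its 4 most counted copies, without which it was 0.0446 CPM with the guide and 0.0270 without it. The other classes were not computed without their own most counted copies.

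**Figure D1:**
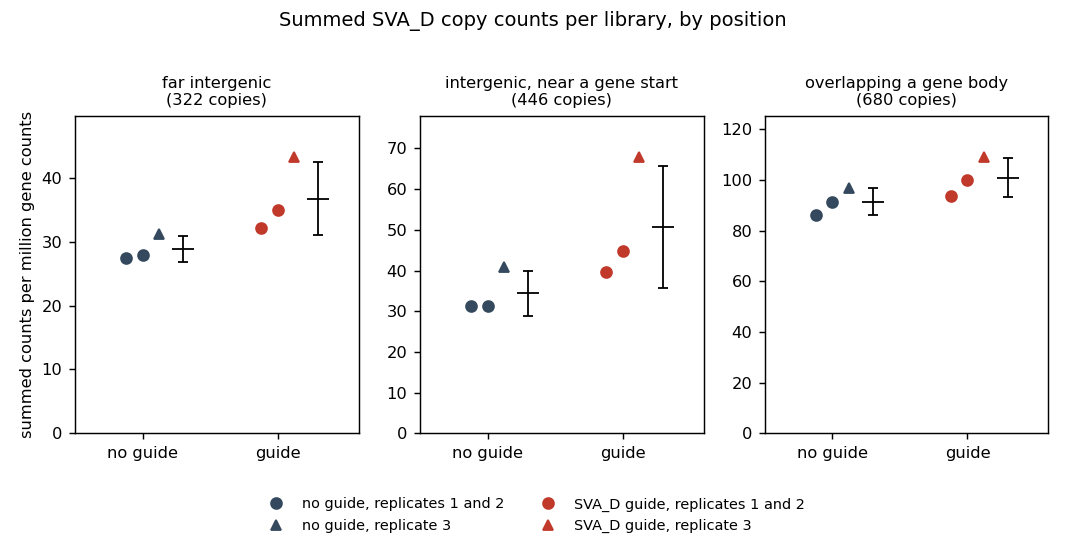
Summed SVA_D copy counts in CPM, scaled to gene counts (vertical axis, each panel with its own scale from 0) in each of 6 libraries, for far intergenic copies, intergenic copies near a gene start and copies overlapping a gene body. Points are libraries, triangles are replicate 3, and the bars are the mean ± SD of 3 libraries; the 3 guide libraries of the far copies (32.1 to 43.2) lie above the 3 without the guide (27.5 to 31.1), while the other panels overlap.

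Whether the far copies changed differently from the other SVA_D copies was tested on shares, which need no scaling between libraries. Far copies took 19.38%, 19.45% and 19.64% of all SVA_D copy counts with the guide, and 18.97%, 18.52% and 18.46% without it. The groups did not overlap, and the means of 19.5% ± 0.133 and 18.6% ± 0.280 (SD, n = 3) differed by 0.838 percentage points (exact permutation p = 0.1, adjusted over 3 such shares 0.15). Without the 3 called copies described next this difference turned direction, to a log2 ratio of -0.034 (exact permutation p = 0.3). Those 3 were chosen in these same data as higher with the guide, and called copies of the other classes were kept. Leaving them out therefore had to lower the far share with the guide relative to the controls, so this value decides nothing. With only copies more than 100000 bases from a gene start, the far share also turned direction, to -0.10 (exact permutation p = 0.1). Of the 18.6 CPM of those distant copies with the guide, SVA_D_dup1377 and SVA_D_dup1378, described below, held 12.4. Without this pair the distant copies' sum had a log2 ratio of 0.46, with 0.23 in replicates 1 and 2 and 0.79 in replicate 3. Their share without the pair was not tested. Of the far and near counts combined, the far share was 42.5% ± 3.13 with the guide and 45.7% ± 2.15 without it (exact permutation p = 0.3, adjusted 0.3). Of the far and gene-body counts it was 26.6% ± 1.57 against 24.0% ± 0.518 (exact permutation p = 0.1, adjusted 0.15).

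Single copies were tested with edgeR's quasi-likelihood test over all SVA_D copies with enough counts, and 3 far copies passed at an adjusted p under 0.05. They were SVA_D_dup685, SVA_D_dup28 and SVA_D_dup802, all higher with the guide and all in no annotated gene. Only 9 of the 322 far copies had enough counts to be tested, so these 3 of 9 say nothing of the others. Over all 63 copies tested, 11 (17.5%) were called higher and 0 (0.0%) lower. Among the 9 far copies 0 were called lower, and at an unadjusted p under 0.05 the counts were also 3 and 0. DESeq2 and limma-voom also called 3 far copies higher and 0 lower. The called copies had 2 to 8 counts in all without the guide and entered the test through their guide libraries, and a copy that enters this way had to differ between the groups. Their p-values in the filtered fits, also with a library left out, therefore do not by themselves show a change. With no low-count filter 2 far copies were called, SVA_D_dup685 (edgeR adjusted p = 2.7e-05) and SVA_D_dup28 (0.0044), and SVA_D_dup802 was not (0.0903). Near a gene start 4 of 21 tested copies were called higher, and in gene bodies 4 of 33.

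SVA_D_dup685 lies on the minus strand at GRCh38 chr8:141201549-141203194 and is 1646 bases long. Its nearest gene start, 84271 bases away, belongs to DENND3, which codes for an exchange factor for Rab GTPases. DENND3 runs on the plus strand from 141117278 to 141195808, so its 3' end is much closer to the copy than its start. SVA_D_dup685 had 39, 20 and 23 counts in guide libraries 1 to 3, and 2, 2 and 4 without the guide. All guide libraries were far above all controls, the lowest with 20 counts and the highest control with 4. The levels were 1.40 ± 0.416 against 0.130 ± 0.0511 CPM (SD, n = 3), with 2 of the 3 controls under 3 counts. Its log2 fold change was 3.34 ± 0.53 (SE, edgeR adjusted p = 0.00108), and with each library left out in turn, under the same filter, it stayed called, at 3.04 to 3.61. The ratio of summed counts was 10.8, with an exact 95% binomial interval of 5.24 to 25.9 that covers counting error only. This copy alone made up 16.1% of the difference in the far sum.

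SVA_D_dup28 lies on the plus strand at chr1:26595456-26597516, is 2061 bases long, and is 65695 bases from the start of RPS6KA1, a ribosomal S6 kinase of the MAPK pathway. RPS6KA1 runs on the plus strand from 26529761 to 26575030, so its 3' end is also closer to the copy than its start. SVA_D_dup28 had 14, 9 and 13 counts with the guide, and 1, 1 and 0 without it. The groups were well apart, at 0.615 ± 0.0658 and 0.0340 ± 0.0302 CPM (SD, n = 3). Its log2 fold change was 3.95 ± 0.73 (SE, edgeR adjusted p = 0.00299). With only 2 control counts, the ratio of summed counts of 19.01 had a wide exact interval of 4.90 to 163. Without guide replicate 1 the adjusted p was 0.144 in edgeR, with the log2 fold change at 3.84.

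SVA_D_dup802 lies on the plus strand at chrX:126640734-126641971, is 1238 bases long, and is 87920 bases from the start of DCAF12L1. It had 10, 10 and 16 counts with the guide, and 2, 0 and 4 without it. Each guide library was above each control, at 0.619 ± 0.147 against 0.0919 ± 0.0937 CPM (SD, n = 3). Its log2 fold change was 2.57 ± 0.67 (SE, edgeR adjusted p = 0.0150), and the ratio of summed counts was 6.34 (2.65 to 18.4). This call was the least stable: it was lost with no low-count filter (edgeR adjusted p = 0.0903) and without guide replicate 1 (0.144), 2 (0.103) or 3 (0.194), or without control replicate 1 (0.123) or 2 (0.181).

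**Figure D2:**
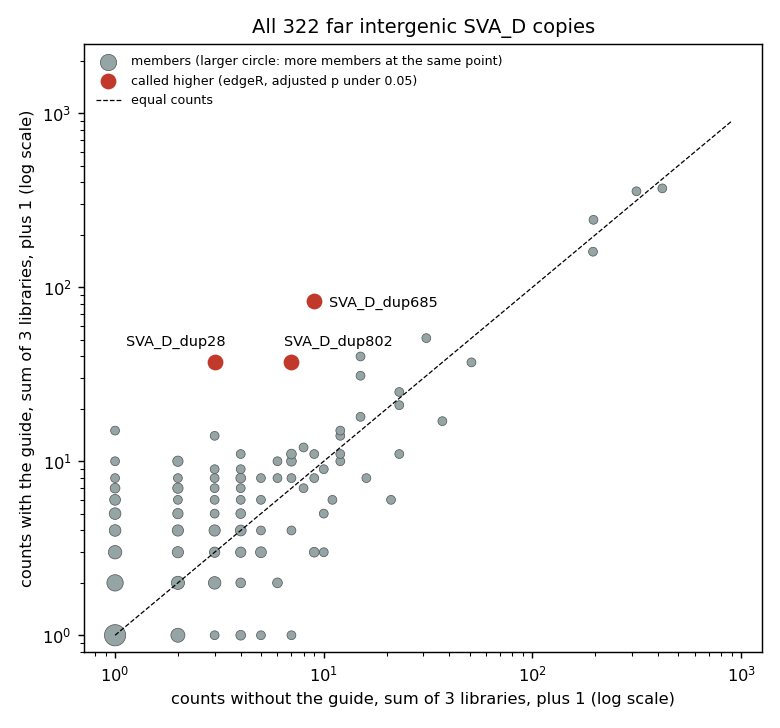
Counts of each far intergenic SVA_D copy summed over the 3 libraries without the guide (horizontal axis, plus 1, log scale) and the 3 with it (vertical axis, plus 1, log scale); larger circles hold more copies at the same point, red marks the copies called by edgeR, and the dashed line is equal counts. The 3 called copies stand above the line at 36 to 82 guide counts and 2 to 8 control counts, while the 4 most counted copies lie close to it.

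None of the 4 most counted far copies passed the test. These 4, each with 100 or more counts, held 2247 of the 3911 far counts (57.5%) and stood at 19.3 ± 2.74 CPM with the guide and 18.3 ± 1.54 without it, a ratio of 1.06. SVA_D_dup1377 and SVA_D_dup1378, which lie 28 bases apart on the plus strand of chromosome 20 (chr20:30404192-30405254 and chr20:30405283-30406523), lie 852410 and 851141 bases from the nearest coding gene start, that of the beta-defensin gene DEFB115. SVA_D_dup1378 had 123, 109 and 137 counts with the guide and 154, 119 and 145 without it. Scaled to depth, all 3 guide libraries (5.91 to 6.62 CPM) were just below all 3 controls (6.79 to 6.87 CPM), and the log2 fold change of -0.15 ± 0.18 (SE, edgeR adjusted p = 0.948) did not pass. SVA_D_dup1377 had 138, 78 and 139 counts with the guide and 92, 80 and 142 without it, overlapping groups with a log2 fold change of 0.21 ± 0.22 (SE, edgeR adjusted p = 0.885). The pair summed to 12.4 CPM with the guide and 11.9 without it. Per kilobase these 2 had the highest levels of the named far copies, 5.31 CPM for SVA_D_dup1378 and 5.24 for SVA_D_dup1377 as means of 6 libraries.

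SVA_D_dup92 (chr1:161422259-161424316) lies within the lincRNAs AL592295.3 and AL592295.4 and 54385 bases from CFAP126, a gene for a protein of cilia. This copy overlaps an exon of AL592295.4, so reads of that lincRNA cannot be told apart from reads of the copy. It had 61, 34 and 148 counts with the guide, and 40, 44 and 111 without it. It was high in replicate 3 of both groups (7.15 and 5.20 CPM) and at 1.77 to 2.93 CPM in the other 4 libraries. Its log2 fold change of 0.31 ± 0.44 (SE, edgeR adjusted p = 0.976) turned to -0.28 without guide replicate 3. SVA_D_dup697 (chr9:33600251-33601837), in the lincRNA CYP4F26P, had 35, 84 and 40 counts with the guide and 93, 76 and 25 without it. Its groups overlapped widely, and its log2 fold change of -0.23 ± 0.57 (SE) changed sign when single libraries were left out.

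Lower in abundance, SVA_D_dup412 (chr5:1585417-1587313), in the SDH-related pseudogene SDHAP3, had 15, 9 and 12 counts with the guide and 12, 14 and 24 without it. Its log2 fold change was -0.43 ± 0.43 (SE, edgeR adjusted p = 0.885), with overlapping groups. SVA_D_dup1438 (chr22:25277134-25278675), 64570 bases from the lens crystallin gene CRYBB2, had 6, 8 and 36 counts with the guide and 8, 2 and 20 without it. Like SVA_D_dup92 it was highest in replicate 3 of both groups, and its log2 fold change of 0.76 ± 0.71 (SE) turned to -0.27 without guide replicate 3.

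A pair of copies on chromosome 7 had count differences of opposite sign. SVA_D_dup632 (chr7:149553502-149554875) and SVA_D_dup633 (chr7:149554531-149555841) overlap each other within the pseudogene ZNF767P, and neither had enough counts for the test. SVA_D_dup632 had 22, 14 and 3 counts with the guide and 9, 2 and 3 without it, and SVA_D_dup633 had 8, 7 and 1 with the guide and 10, 9 and 17 without it. In SVA_D_dup633 all guide libraries were below all controls, and in SVA_D_dup632 only guide replicates 1 and 2 were above all controls. Without guide replicate 3, its lowest guide library, SVA_D_dup632 entered the test and was called higher (log2 fold change 2.07, edgeR adjusted p = 0.0485). It entered through guide replicates 1 and 2, and a copy that enters this way had to differ between the groups. That call is therefore no evidence of a change, and with all libraries and no filter the edgeR adjusted p was 0.612. The pair's sum was 0.968 ± 0.677 CPM with the guide and 0.803 ± 0.154 without it. The remaining named copy, SVA_D_dup696 (chr9:29188018-29190065), lies 517732 bases from LINGO2, and had 0, 2 and 3 counts with the guide and 5, 11 and 4 without it. Its guide libraries were all below its controls, at 0.0886 ± 0.0776 against 0.348 ± 0.249 CPM (SD, n = 3), a ratio of summed counts of 0.264 (0.0775 to 0.725) in a copy that was not tested.

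**Figure D3:**
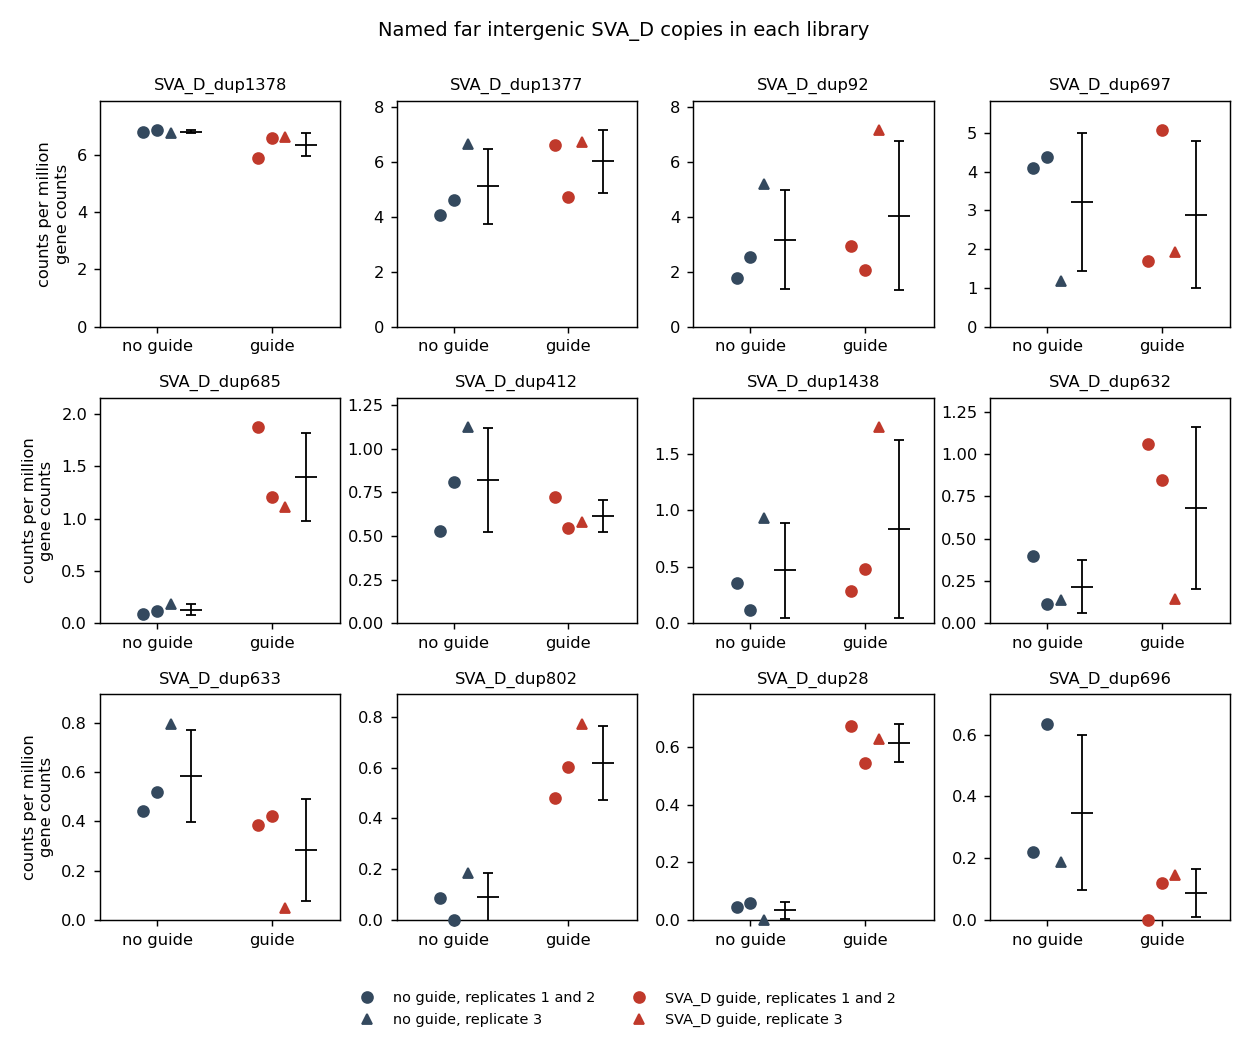
Levels in CPM, scaled to gene counts (vertical axis, each panel with its own scale from 0) of the 12 named far intergenic SVA_D copies in each of 6 libraries; points are libraries, triangles are replicate 3, and bars are the mean ± SD of 3 libraries. SVA_D_dup685, SVA_D_dup802 and SVA_D_dup28 have all guide libraries above all controls, and SVA_D_dup1378, SVA_D_dup633 and SVA_D_dup696 all below; SVA_D_dup92 and SVA_D_dup1438 are highest in replicate 3 of both groups.

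Most of the far copies were below the depth at which a single copy can be judged. No count was seen for 111 of the 322 in any library, 161 had 1 to 9 counts over the 6 libraries, and 50 had 10 or more, for a median of 1.5 counts. Grouped by their total over all 6 libraries, the 272 copies with under 10 counts summed to 4.04, 4.89 and 8.50 CPM with the guide and 3.53, 2.54 and 2.86 without it. The guide libraries were above the controls, with guide replicate 3 the highest by far, and the ratio of means was 1.95. The log2 ratio of these sums was 0.56 in replicates 1 and 2 and 1.57 in replicate 3, and the part in this of whatever sets replicate 3 apart was not tested. The 46 copies with 10 to 99 counts summed to 10.9, 11.6 and 12.3 CPM with the guide and 7.24, 6.93 and 8.47 without it, a ratio of 1.54. Their log2 ratio was 0.67 in replicates 1 and 2 and 0.53 in replicate 3. Of the difference in the far sum, copies with under 10 counts held 35.9%, those with 10 to 99 held 51.2% and the 4 most counted held 12.9%. The 3 called copies, which fall in the middle group, held 30.1%. Without them the far sum was 34.1 ± 5.95 CPM with the guide and 28.6 ± 1.89 without it, a ratio of 1.19 with overlapping groups (exact permutation p = 0.2). The log2 ratios were then 0.16 in replicates 1 and 2 and 0.40 in replicate 3. As the 3 called copies were chosen for being higher, leaving them out had to lower the ratio.

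**Figure D4:**
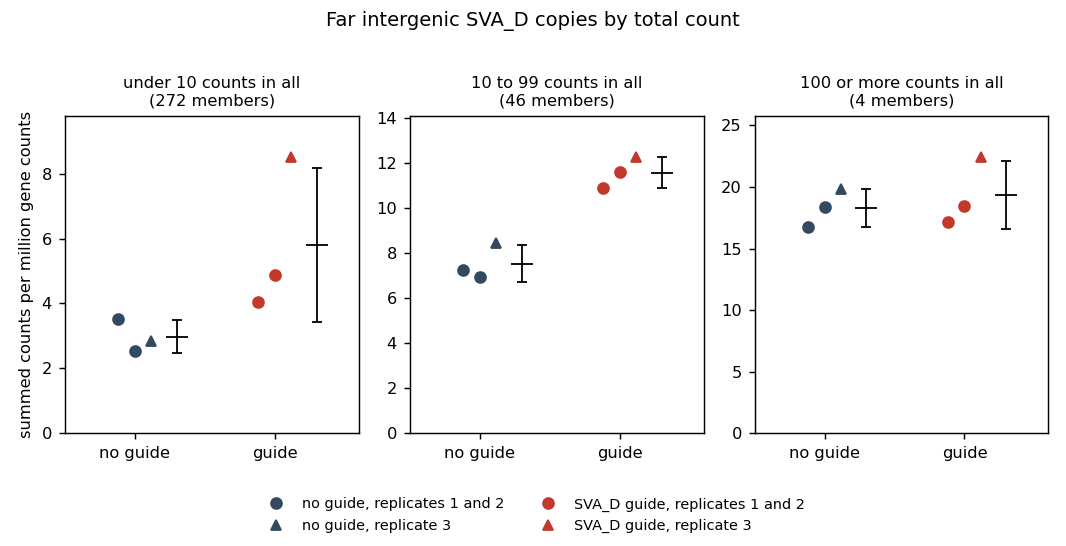
Summed levels in CPM, scaled to gene counts (vertical axis, each panel with its own scale from 0) of far intergenic SVA_D copies in each library, split by the copies' total over all 6 libraries into under 10 (272 copies), 10 to 99 (46) and 100 or more (4). Points are libraries, triangles are replicate 3, and bars are the mean ± SD of 3 libraries; the guide libraries lie above the controls in the 2 less counted groups and overlap them in the most counted group.

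The number of far copies with at least 1 count was 104, 97 and 137 in guide libraries 1 to 3 and 93, 78 and 79 in the controls. The groups did not overlap (exact permutation p = 0.1), although the guide libraries were sequenced no deeper, with 58057901 gene counts in all against 61330299. Of the 211 far copies with any count, 68 (32.2%) were seen only with the guide and 21 (9.95%) only without it. Over all 1060 SVA_D copies with a count these shares were 22.9% and 11.4%. Replicates 1 and 2 gave 56 copies seen only with the guide and 28 only without it, of 175, and replicate 3 gave 80 and 22, of 159. Over all SVA_D copies these numbers were 239 and 167 of 919 in replicates 1 and 2, and 321 and 142 of 848 in replicate 3. The first sets 2 libraries against 2 and the second 1 against 1, so the sizes of the gaps are not compared. Of these 89 one-sided copies 64 had 1 or 2 counts in all, but 9 had 5 or more counts with the guide and none without it, and 1 had the reverse. Over all 1060 copies these were 28 (2.64%) and 7 (0.66%). In each of the 9 far copies, guide replicate 3 held more counts than guide replicates 1 and 2 together, and SVA_D_dup1410 had all of its 6 counts there. The part in this of whatever sets replicate 3 apart was not tested.

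Some of these low-count copies were seen in every guide library. SVA_D_dup1111 (chr15:47131720-47132740), 51361 bases from the semaphorin gene SEMA6D, had 2, 4 and 8 counts with the guide and none in any control. SVA_D_dup132 (chr1:226114299-226115980), 52448 bases from the histone gene H3-3A, had 1, 1 and 7 with the guide and none in any control. In all, 4 far copies had counts in every guide library and in no control, and SVA_D_dup983 was the 1 with the reverse. Over all 1060 SVA_D copies with a count the numbers were 17 (1.6%) and 3 (0.283%). The 6 counts of SVA_D_dup243, the copy with 5 or more counts and none with the guide, all came from control replicate 3. These copies were singled out after their values were seen and were too low to be tested.

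By level in each library, 18 of the 211 far copies with a count had all guide libraries above all controls and 5 had all below. Over all 1060 SVA_D copies with a count, 7.45% were above and 1.32% below, so the 18 are near what SVA_D copies in general gave. Among the 50 far copies with 10 or more counts the numbers were 9 and 4, against 45 (14.5%) and 10 (3.22%) of all 311 SVA_D copies with that many counts. Besides the 3 called copies, those 9 include SVA_D_dup1182 (4, 6 and 3 counts against 2, 0 and 0) and SVA_D_dup848 (4, 3 and 3 against 0, 1 and 2). The mean level was higher with the guide in 147 of the 211 (69.7%) and lower in 64, against 65.3% higher over all 1060 copies, 70.9% over near copies and 59.9% over copies in gene bodies.

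Distance from genes divided the far sum unevenly, and none of the following splits was tested. Copies 50000 to 100000 bases from a gene start stood at 18.2 ± 3.18 CPM with the guide and 12.4 ± 0.516 without it, a ratio of 1.46, and held 72.8% of the difference. The log2 ratio of this band was 0.44 in replicates 1 and 2 and 0.74 in replicate 3. All 3 called copies are in this band, and without them its ratio was 1.28, with log2 ratios of 0.20 in replicates 1 and 2 and 0.60 in replicate 3. At 100000 to 500000 bases the values were 5.35 ± 1.78 and 3.84 ± 0.490 CPM, a ratio of 1.39, with log2 ratios of 0.30 in replicates 1 and 2 and 0.73 in replicate 3. Beyond 500000 bases they were 13.2 ± 1.21 and 12.6 ± 1.24 CPM, a ratio of 1.05, and most of this level came from the chromosome 20 pair. Without that pair the 40 most distant copies held 49 counts with the guide and 39 without it, at 0.836 ± 0.239 and 0.655 ± 0.238 CPM. Their log2 ratio was -0.10 in replicates 1 and 2 and 1.25 in replicate 3.

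Length, strand, annotation and neighbouring copies were described in the same way, also without a test. Copies of 1000 bases or longer held 93.3% of the difference, at 34.6 against 27.3 CPM, and the 104 shorter ones stood at 2.12 ± 0.465 and 1.59 ± 0.381 CPM, with log2 ratios of 0.16 in replicates 1 and 2 and 0.92 in replicate 3 for the shorter ones. On the minus strand, which holds the called SVA_D_dup685 (1.40 against 0.130 CPM), the ratio was 1.78 (7.85 against 4.41 CPM). On the plus strand it was 1.18 (28.9 against 24.4 CPM). The plus strand holds the chromosome 20 pair (12.4 against 11.9 CPM) and the called SVA_D_dup28 and SVA_D_dup802. For the minus strand the log2 ratio was 0.64 in replicates 1 and 2 and 1.12 in replicate 3, and for the plus strand 0.20 and 0.31. In a GENCODE gene the ratio was 1.16 (12.5 against 10.9 CPM), and outside any annotated gene it was 1.35 (24.2 against 18.0 CPM). In a GENCODE gene the log2 ratio was 0.10 in replicates 1 and 2 and 0.40 in replicate 3. Copies with another SVA_D copy within 1000 bases had a ratio of 1.07, or 1.24 without the chromosome 20 pair, and the isolated copies had a ratio of 1.47, with log2 ratios of 0.39 in replicates 1 and 2 and 0.81 in replicate 3.

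The genes nearest to the far copies did not pass the test in any case. The 322 copies had 266 different nearest protein-coding genes, of which 196 had enough counts, and edgeR called 0 of them, as it called 0.0% of all 13017 genes in either direction. At an unadjusted p under 0.05, 1 nearest gene was higher and 0 were lower, against 19 and 5 over all genes, and DESeq2 and limma-voom also called 0. Of the 196, 82 had a log2 fold change above 0, against 6480 of all 13017 genes. The median was -0.017 against -0.00077 over all genes. Without TMM scaling 118 of the nearest genes were above 0, against 8468 of 13007 over all genes. The medians were then 0.026 and 0.042. DENND3, nearest to SVA_D_dup685, was at 20.2, 19.4 and 25.9 CPM with the guide and 14.7, 16.3 and 19.1 without it (TMM-scaled). Its guide libraries were all above its controls, with a log2 fold change of 0.39 ± 0.18 (SE, edgeR adjusted p = 0.99996). RPS6KA1, nearest to SVA_D_dup28, was at 40.3 ± 12.6 against 35.5 ± 11.5 CPM, and its log2 fold change of 0.18 ± 0.28 (SE) turned to -0.11 without guide replicate 3. DCAF12L1, nearest to SVA_D_dup802, had 0 counts in every library.

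Among the nearest genes with the smallest p, none passed, and the values are given as a description. ANXA2R, which codes for a receptor for annexin A2, was at 1.53, 1.94 and 1.43 CPM with the guide and 1.01, 0.676 and 0.977 without it, a log2 fold change of 0.87 ± 0.35 (SE) on 95 and 55 counts. GARIN1A was lower in its values, with 12 counts over the guide libraries and 50 over the controls and a log2 fold change of -1.92 ± 0.89 (SE). MAT2A, the enzyme that makes S-adenosylmethionine and the gene nearest to SVA_D_dup192, stood at 150 ± 11.9 against 128 ± 9.40 CPM, a log2 fold change of 0.23 ± 0.12 (SE). DSEL, an epimerase-like gene of dermatan sulfate, had 33 counts against 17, a log2 fold change of 0.93 ± 0.52 (SE).

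The genes known to silence SVA and other repeats gave no call either. All 20 genes of the list were tested, edgeR called 0, 0 of them had an unadjusted p under 0.05, and their log2 fold changes ran from -0.15 to 0.11 with a median of -0.012 (0.023 without TMM scaling). Of the 20, 7 were above 0, and 13 without TMM scaling. ZNF91, the KRAB zinc finger protein that binds SVA, stood at 6.66 ± 0.683 CPM with the guide and 7.31 ± 1.98 without it, a log2 fold change of -0.14 ± 0.25 (SE). ZNF611, another KRAB zinc finger protein, was at 10.3 ± 3.91 against 10.3 ± 1.42 CPM (-0.011 ± 0.32). TRIM28, the corepressor that these proteins recruit, was at 500 ± 86.3 against 481 ± 115 CPM, a log2 fold change of 0.056 ± 0.22 (SE). All 3 changed sign in replicates 1 and 2 alone, where ZNF91 was at 0.023, ZNF611 at 0.16 and TRIM28 at -0.0021 on the log2 scale. The 3 with the smallest p were ATF7IP, a partner of the methyltransferase SETDB1 (-0.15 ± 0.12), EHMT1, an H3 lysine 9 methyltransferase (0.11 ± 0.11), and CBX3, a heterochromatin protein HP1 (-0.092 ± 0.13), all as log2 fold changes with SE.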

How the data were processed

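TRIzol-extracted total RNA was paired-end sequenced on a NovaSeq, per the labels' protocols. Per the submitters' processing notes, FastQC 0.11.8, STAR 2.7.0e and featureCounts 2.0.0 were used on GRCh38. The deposited values are raw counts. Per the file headers, gene counts covered whole protein-coding gene bodies of Ensembl 97, without strand or multi-mapping pairs, and SVA_D copy counts were made without strand and with multi-mapping pairs, so overlapping and antisense transcripts cannot be told apart.

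From these, copies were classed by position, and raw counts per 1000000 gene counts (CPM) were summed per library. Tests used edgeR 4.0.16 (glmQLFit, glmQLFTest) in R 4.3.3 on whole tables, with gene-table TMM library sizes, filterByExpr at a minimum count of 10 and Benjamini-Hochberg adjustment at 0.05. The fit code was also run on simulated counts. That run left out copies with few counts and the shift of replicate 3, so it does not bear on either. Sums and shares used two-sided exact permutation tests. DESeq2 1.42.0, limma 3.58.1, other scalings, filters, members and left-out libraries were alternatives.

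The members, lists and rules were chosen with earlier results of these data known. Copies were named when called, among the 8 most abundant, or among the 5 largest differences in CPM in either direction. Genes were named when nearest to a called copy, as ZNF91, ZNF611 or TRIM28, or for the smallest p, 5 among nearest genes (DENND3 under both rules) and 3 in the silencing list of 20. Same-numbered libraries deviated together in the gene counts (r = 0.511, 0.599 and 0.842 for replicates 1, 2 and 3), although guide replicate 1 correlated better with control replicate 2 (0.570) and guide replicate 2 with control replicate 1 (0.607). The numbers were therefore treated as pairs in an alternative fit. Leukocyte, endothelial, fibroblast and hepatocyte markers were also read, and the highest was COL1A1 at 1.68 to 18.0 CPM. Repeat subfamily tables were not used, and sequences of the copies and 1 marker are not reported here.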

Additional observations from a re-analysis of the deposited data

How the results depend on the processing

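Every alternative kept the higher level of the far sum with the guide, with log2 ratios of 0.178 to 0.733 against 0.349, and 0.217 to 0.437 with each library left out in turn. No exact test on it can go below p = 0.1, so none could pass. The log2 ratio of the far share was 0.0560 to 0.0759 with each library left out. It reversed to -0.103 with only copies over 100000 bases from a gene start. It also reversed to -0.0336 without the called far copies, an alternative chosen after seeing the data. Leaving out copies chosen as higher had to lower this share, so that reversal decides nothing. Over 100000 bases, the chromosome 20 pair held 12.4 of the 18.6 CPM with the guide. The number of far copies called higher was 2 or 3 under other tools, scalings, filters and covariates and 1 to 3 with a library left out, with 1 (SVA_D_dup685) without guide replicate 1. An equal number did not always mean the same copies: without guide replicate 3, SVA_D_dup802 was lost and SVA_D_dup632 was called instead. Copies called lower, nearest genes and silencing genes stayed at 0 in every fit run. SVA_D_dup802 fell under the filter without TMM and with replicates 1 and 2 only, and SVA_D_dup28 with library sizes from the copy table.

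With the replicate block, the far sum's log2 ratio was 0.340 and the share's 0.0635 (exact paired permutation p = 0.25 for both, the smallest it allows), 3 far copies were called higher and 0 lower, and it changed no call.

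With 1 library left out, log2 fold changes ran from -0.278 to 0.754 for SVA_D_dup92, -0.960 to 0.0646 for SVA_D_dup697, -0.270 to 1.59 for SVA_D_dup1438, -0.107 to 0.484 for RPS6KA1, -0.249 to 0.111 for ZNF91, -0.224 to 0.275 for ZNF611 and -0.130 to 0.184 for TRIM28. With replicates 1 and 2 only, ZNF91 was at 0.0233, ZNF611 at 0.163 and TRIM28 at -0.00211, and without TMM ZNF611 was at 0.0176. The cause was not tested. Depth limits what single far copies can show: 272 of 322 had under 10 counts over 6 libraries.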
